A study of Mus musculus with 6 samples.

Results

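The genes described here are those for the pore-forming and auxiliary subunits of the voltage-gated sodium, voltage-gated calcium and HCN channels, together with the sodium leak channel gene Nalcn. They were chosen by symbol from the counted genes: every Scn gene numbered as an alpha or beta subunit, every Cacna1 and Cacna2 gene, Cacnb1 to Cacnb4, every Hcn gene and Nalcn. This gave 36 genes of 24411 counted symbols, and 33 of the 36 had enough reads to be tested. Scn2a, a further sodium channel alpha gene, is counted under the older symbol Scn2a1 and so lies outside the rule. Its values are given beside those of its relatives and are not in the counts of channel genes.

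The data are bulk RNA-seq of total RNA from mice at postnatal day 18. The first group is the Atoh7 large enhancer knockout (3 libraries), in which a regulatory region of the transcription factor gene Atoh7 is deleted, and the second is wild type (WT, 3 libraries). The labels give no strain, no Cre driver and no further allele for either group. The design text and the protocol name developing cerebellum as the tissue, while the source and tissue fields name retina. Photoreceptor genes were scarce in every library: 7 photoreceptor markers summed to 5.12 to 5.90 CPM in enhancer KO (CPM, read counts scaled to a common library total) and to 6.01 to 6.60 CPM in WT, and 10 Purkinje cell markers summed to 6787 to 7307 CPM in enhancer KO and to 4890 to 5875 CPM in WT. The samples are called cerebellum below on that basis. The libraries are described as independent replicates but the labels tie none to a named animal, so p-values measure the spread between these libraries.

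Voltage-gated sodium channels carry the rising phase of the action potential. Each has a pore-forming alpha subunit and beta subunits that set gating, surface level and adhesion. Voltage-gated calcium channels couple depolarisation to transmitter release, gene expression and firing pattern. Their alpha1 subunit forms the pore, and the alpha2delta and beta subunits govern trafficking and gating. High-voltage-activated alpha1 subunits are the L-type, P/Q-type, N-type and R-type, and the low-voltage-activated ones are the T-type. HCN channels open on hyperpolarisation and carry a cation current that sets resting potential and pacemaking. In cerebellum, Purkinje cells fire spontaneously and lean on P/Q-type calcium channels, alpha2delta-2 and the sodium channel beta-4 subunit that serves resurgent sodium current. Granule cells are small, very numerous neurons that express N-type and R-type calcium channels and the sodium channel encoded by Scn2a.

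The libraries held 36849747 to 40858310 stranded reads on genes in enhancer KO and 22812075 to 33076111 in WT. Reads outside exons were 17.4 ± 0.735% of all reads in enhancer KO and 32.4 ± 1.56% in WT (SD, n = 3 each), so the 2 groups differed in library makeup without overlap. WT replicate 2 had 20.4% unmapped reads and 12.9% of its gene reads on the ribosomal RNA gene Rn45s, against 1.51 to 3.02% in the other libraries. Atoh7 had 0.744, 0.858 and 0.695 CPM in enhancer KO (28, 33 and 29 reads), against 1.94, 2.05 and 2.13 CPM in WT (63, 42 and 72 reads). It was lower in every enhancer KO library (log2 fold change −1.41 ± 0.205 SE, edgeR adjusted p = 0.000353). Of 15846 genes tested, 31.3% passed an edgeR adjusted p of 0.05, with 13.4% higher and 17.9% lower in enhancer KO.

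Among the 33 channel genes tested, 14 passed (42.4%, beside the 31.3% of all genes), with 6 increases and 8 decreases in enhancer KO. Calls depend on depth, and of the 27 channel genes with a mean of at least 10 CPM 13 passed (48.1%), beside 39.4% of all genes at that level. Cacna1g, Cacna2d2, Scn4b and Hcn2 were among the genes higher in enhancer KO. Those lower were Cacna1a, Cacna1b, Cacna1c, Cacna1d, Cacna1e, Cacna2d1, Cacna2d3 and Scn11a. The changes were small: 2 called genes, Cacna1e and Scn11a, differed by over 1.5-fold and 0 by over 2-fold. The median log2 fold change was 0.04 over the channel genes and 0.00059 over all genes tested. Groups did not overlap for 16 channel genes, which is 48.5% of those tested beside 44.8% of all genes. WT replicate 1 weighs on the number that rose, which was 10 with that library left out. Log2 fold changes below are enhancer KO over WT and carry the standard error of the edgeR fit.

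**Figure D1:**
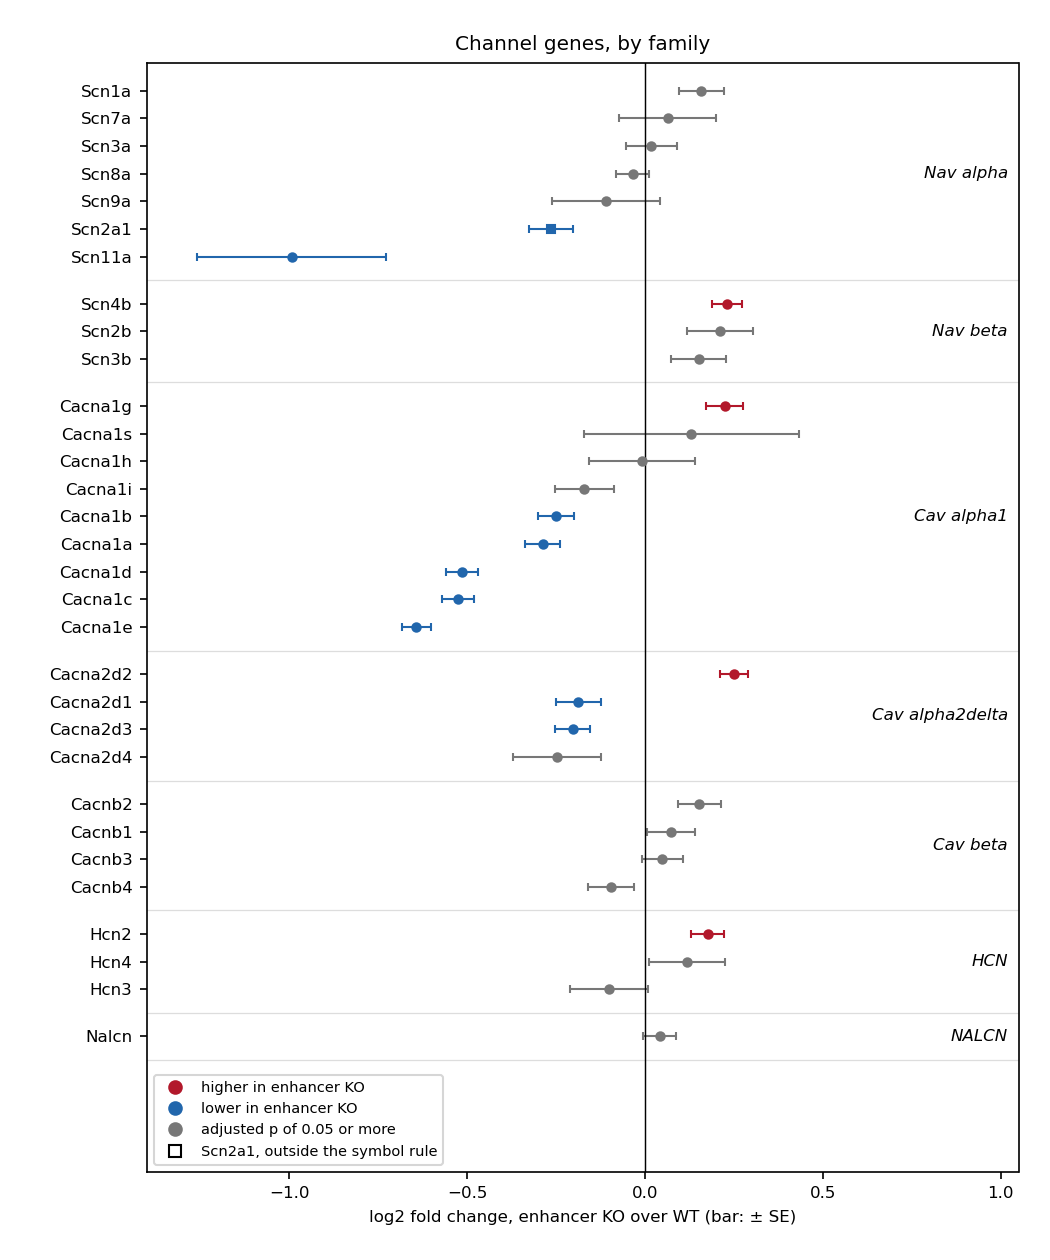
Log2 fold change of enhancer KO over WT (horizontal axis) for tested channel genes and Scn2a1, grouped by subunit family down the page, with bars of 1 standard error. Red points rose and blue points fell at an edgeR adjusted p of 0.05, grey points did not pass, and the square is Scn2a1. The calcium channel genes Cacna1a, Cacna1b, Cacna1c, Cacna1d and Cacna1e lie below 0, and Cacna1g, Cacna2d2, Scn4b and Hcn2 lie above 0.

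The pore-forming calcium channel genes held most of the decreases. Of 6 high-voltage-activated alpha1 genes tested, 5 fell in enhancer KO and 0 rose, with a median log2 fold change of −0.40. Over all genes tested, 17.9% fell and 13.4% rose. The sixth high-voltage-activated gene was the muscle L-type gene Cacna1s, at 0.952 CPM in enhancer KO and 0.907 CPM in WT. The R-type gene Cacna1e (chr1:154390731-154884501, minus strand, mm10) had 213, 211 and 221 CPM in enhancer KO, against 337, 331 and 338 CPM in WT. The highest enhancer KO value was well under the lowest WT value, and the decrease was the largest among channel genes above 10 CPM. The mean was 215 ± 5.42 CPM in enhancer KO and 335 ± 4.18 CPM in WT (SD, n = 3 each), a log2 fold change of −0.64 ± 0.0398 (edgeR adjusted p = 8.18e-07).

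The neuronal L-type genes, whose channels link activity to transcription and pacemaking, moved by like amounts. Cacna1c (chr6:118587240-119196418, minus strand) had 77.5, 72.2 and 74.2 CPM in enhancer KO, against 112, 103 and 107 CPM in WT. Cacna1d (chr14:30039939-30491455, minus strand) had 69.5, 69.5 and 71.7 CPM in enhancer KO, against 102, 94.9 and 103 CPM in WT. For both genes the enhancer KO libraries were all below the WT libraries. Cacna1c fell by 30.6% (log2 fold change −0.53 ± 0.0456, edgeR adjusted p = 9.61e-06). Cacna1d fell by 29.9% (log2 fold change −0.51 ± 0.0452, edgeR adjusted p = 1.04e-05). Cacna1c is also expressed in vessel walls, and 4 endothelial and mural markers summed to 70.7 to 83.1 CPM in enhancer KO and 97.9 to 108 CPM in WT. Of these, Cldn5, Pecam1 and Ly6c1 passed as lower. The mural marker Pdgfrb had 33.8, 30.6 and 24.6 CPM in enhancer KO, against 35.7, 33.2 and 39.7 CPM in WT. The Pdgfrb groups overlapped, and the difference did not pass (log2 fold change −0.29). The part of vessel cells in the Cacna1c change was not tested. Retinal Cacna1f had 1, 1 and 2 reads in enhancer KO and 7, 3 and 5 reads in WT, was not tested, and had 90.7% of its stranded reads on the other strand.

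The presynaptic P/Q-type and N-type genes fell by less. Cacna1a (chr8:84388440-84640246, plus strand), the main calcium channel pore of Purkinje cells and of many terminals, had 339, 330 and 369 CPM in enhancer KO, against 427, 415 and 425 CPM in WT. The highest enhancer KO library was below the lowest WT library (log2 fold change −0.29 ± 0.0493, edgeR adjusted p = 0.00103). Cacna1b (chr2:24603887-24763152, minus strand), the N-type pore that serves transmitter release, had 93.8, 93.2 and 96.5 CPM in enhancer KO, against 121, 106 and 110 CPM in WT. The groups did not overlap, with a log2 fold change of −0.25 ± 0.0505 (edgeR adjusted p = 0.00287). That call was lost when counts were scaled by library size alone (log2 fold change −0.19, adjusted p = 0.0794).

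The T-type genes, which open near rest and drive rebound bursts, gave no decrease that passed: 1 of 3 rose and 0 fell. The shares over all genes tested were 13.4% higher and 17.9% lower. Cacna1g (chr11:94408391-94474198, minus strand), the T-type gene abundant in Purkinje cells, had 478, 453 and 452 CPM in enhancer KO, against 373, 391 and 420 CPM in WT. All enhancer KO libraries were above all WT libraries, an increase of 16.8% (log2 fold change 0.22 ± 0.0518, edgeR adjusted p = 0.00641). Cacna1h averaged 22.7 ± 2.35 CPM in enhancer KO and 22.7 ± 4.76 CPM in WT (SD, n = 3 each; edgeR adjusted p = 0.975). Cacna1i had 65.7, 64.1 and 67.2 CPM in enhancer KO, against 85.1, 67.1 and 69.0 CPM in WT. WT replicate 1 alone stood high, and the difference did not pass (log2 fold change −0.17 ± 0.0831, edgeR adjusted p = 0.159).

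Summed over the alpha1 genes, calcium channel pore transcripts came to 1351 ± 31.4 CPM in enhancer KO and 1570 ± 34.3 CPM in WT (SD, n = 3 each). The groups did not overlap, and the exact two-sided permutation p of 0.1 is the smallest that 3 against 3 libraries allow. Levels were also taken per kilobase of spliced length, the joined exons of all annotated transcripts, which makes genes only roughly comparable. Per kilobase, Cacna1g made up 41.6, 41.0 and 39.2% of the alpha1 total in enhancer KO, against 29.5, 32.1 and 33.0% in WT. Cacna1a made up 27.0 ± 1.20% in enhancer KO and 30.0 ± 0.26% in WT (SD, n = 3 each). Cacna1e made up 7.60 ± 0.129% in enhancer KO and 10.8 ± 0.113% in WT (SD, n = 3 each). By plain counts Cacna1e held 15.9% in enhancer KO and 21.4% in WT. Cacna1g led in every enhancer KO library. In WT, its mean of 31.5 ± 1.85% lay within its SD of that of Cacna1a, WT replicate 1 had more Cacna1a (30.0%), and by plain counts Cacna1a held 26.9% and Cacna1g 25.2%. Each of these 3 shares separated the groups, with an exact permutation p of 0.1 and a Benjamini-Hochberg value of 0.2 over 36 shares.

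**Figure D2:**
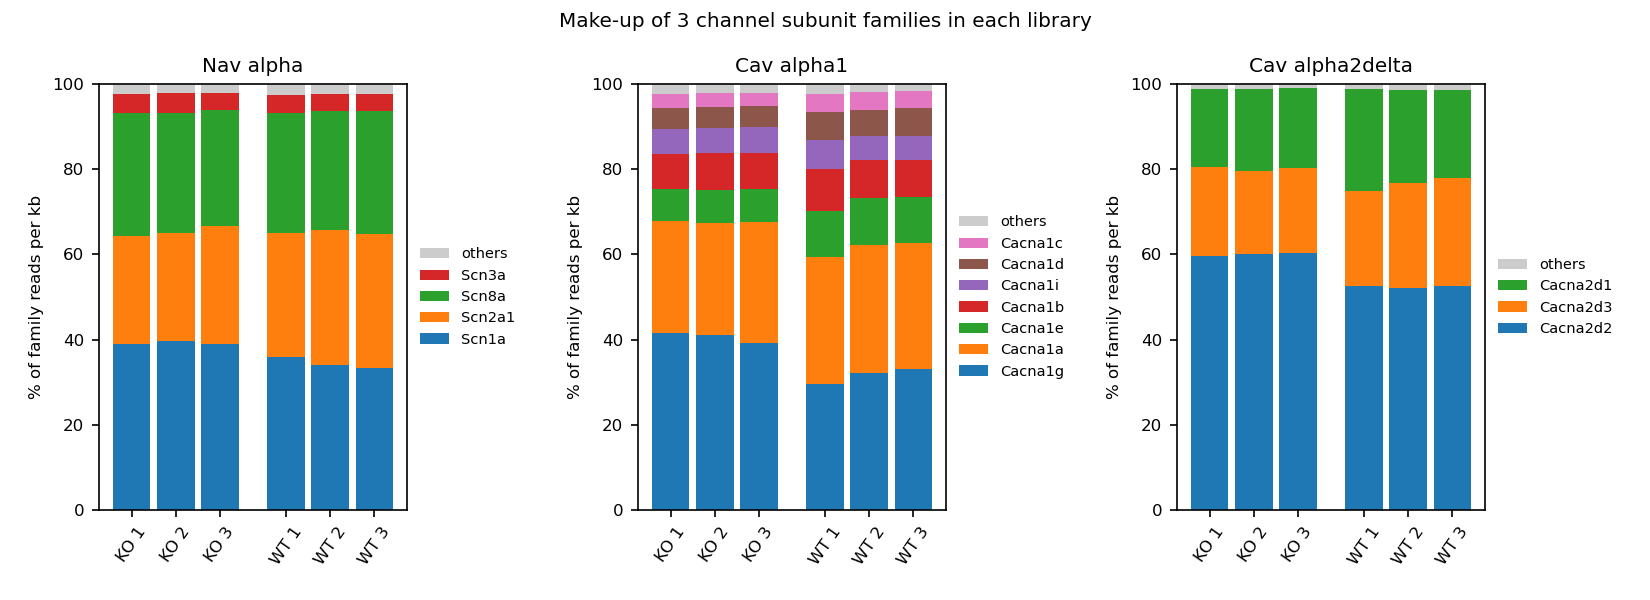
Share of each gene in the total level per kilobase of its family (percent, vertical axis) for sodium channel alpha, calcium channel alpha1 and alpha2delta genes, as a stacked bar for each of the 3 enhancer KO and 3 WT libraries. Cacna1g holds 39.2 to 41.6% of the alpha1 level in enhancer KO and 29.5 to 33.0% in WT, and Cacna2d2 averages 60.0% of the alpha2delta level in enhancer KO and 52.4% in WT.

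The alpha2delta genes changed in both directions, with 1 increase and 2 decreases among 4, beside 13.4% higher and 17.9% lower among all genes tested. The alpha2delta products are extracellular proteins that raise the number of calcium channels at the membrane and release sites. To show the sequence before the start of genes that moved in opposite directions, the 250 bases before the RefSeq start of the 3 called genes are printed 5′ to 3′ on the gene's strand (RefSeq, GRCm38.p6). Capitals mark 3 motifs searched on both strands and allowed to overlap: the GC box GGGCGG, the TATA box TATAAA and the E-box CAGCTG. The windows are chr9:107399630-107399879 (plus strand) for Cacna2d2, which rose, and chr14:29721865-29722114 (minus strand) for Cacna2d3 and chr5:15934441-15934690 (plus strand) for Cacna2d1, which fell. The Cacna2d2 window lies inside the GENCODE span of that gene given below, which begins before the RefSeq start.
Cacna2d2: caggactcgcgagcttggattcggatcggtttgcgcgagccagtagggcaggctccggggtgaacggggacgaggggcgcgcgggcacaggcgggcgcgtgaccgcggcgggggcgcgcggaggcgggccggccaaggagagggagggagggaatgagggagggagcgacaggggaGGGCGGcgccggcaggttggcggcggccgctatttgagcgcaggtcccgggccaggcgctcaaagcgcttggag
Cacna2d3: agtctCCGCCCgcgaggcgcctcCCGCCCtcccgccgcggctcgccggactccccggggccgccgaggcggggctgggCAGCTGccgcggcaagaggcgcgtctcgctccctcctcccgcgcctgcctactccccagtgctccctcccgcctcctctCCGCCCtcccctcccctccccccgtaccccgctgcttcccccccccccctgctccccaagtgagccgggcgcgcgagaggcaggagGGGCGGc
Cacna2d1: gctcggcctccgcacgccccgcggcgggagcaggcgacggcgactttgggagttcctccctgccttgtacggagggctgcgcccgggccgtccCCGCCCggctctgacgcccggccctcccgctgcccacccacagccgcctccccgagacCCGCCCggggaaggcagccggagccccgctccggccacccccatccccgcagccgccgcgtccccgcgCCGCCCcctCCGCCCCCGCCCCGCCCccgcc
The GC content was 74.4% for Cacna2d2, 80% for Cacna2d3 and 82.4% for Cacna2d1. The Cacna2d2 window held 1 GC box, the Cacna2d3 window 4 GC boxes and 1 E-box, and the Cacna2d1 window 6 GC boxes, with no TATA box in these 3 windows. Among 32851 mouse promoters of this length, 32.7% held a GC box, 12.4% a TATA box and 13.0% the E-box.

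Cacna2d2 (chr9:107399612-107529343, plus strand), whose loss in mice gives cerebellar ataxia, had 207, 205 and 215 CPM in enhancer KO, against 181, 171 and 174 CPM in WT. Every enhancer KO library was above every WT library, an increase of 19.0% (log2 fold change 0.25 ± 0.0397, edgeR adjusted p = 0.000628). Cacna2d3 (chr14:28904943-29721864, minus strand) had 79.9, 73.4 and 77.7 CPM in enhancer KO, against 84.6, 89.3 and 92.0 CPM in WT. The groups did not overlap (log2 fold change −0.20 ± 0.0485, edgeR adjusted p = 0.00762), but the call was lost with library size scaling alone (−0.14, adjusted p = 0.188) and without WT replicates 2 and 3 (−0.11, adjusted p = 0.244).

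Cacna2d1 (chr5:15934691-16374511, plus strand), a gabapentin target, had 99.7, 102 and 104 CPM in enhancer KO, against 129, 111 and 107 CPM in WT. The WT libraries spread widely, and WT replicate 1 was the highest. The difference passed narrowly (log2 fold change −0.19 ± 0.0639, edgeR adjusted p = 0.0462) and failed in 11 of 16 alternatives. Among these was leaving out WT replicate 1 (−0.10, adjusted p = 0.106), WT replicate 2 (adjusted p = 0.0688) or any of the 3 enhancer KO libraries (adjusted p = 0.0725 to 0.169). Cacna2d4, the photoreceptor subunit, was at 4.61 ± 0.319 CPM in enhancer KO and 5.49 ± 0.481 CPM in WT (SD, n = 3 each; edgeR adjusted p = 0.158). Within the family, Cacna2d2 took 60.0 ± 0.423% of the level per kilobase in enhancer KO and 52.4 ± 0.248% in WT. Cacna2d3 took 20.2 ± 0.676% in enhancer KO and 24.1 ± 1.58% in WT. The family sums overlapped, at 392 ± 7.63 CPM in enhancer KO and 386 ± 12.6 CPM in WT (SD, n = 3 each; exact permutation p = 0.5).

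Of the 4 genes for intracellular calcium channel beta subunits, 0 passed in the main edgeR fit or in DESeq2, and 1, Cacnb2, had an unadjusted edgeR p under 0.05. In edgeR, 31.3% of all genes tested passed. Cacnb4, the leading cerebellar beta subunit and the gene of the lethargic mouse, had 275, 284 and 317 CPM in enhancer KO, against 305, 338 and 294 CPM in WT. The groups overlapped, and the 95% interval of the log2 fold change ran from −0.22 to 0.03 (edgeR adjusted p = 0.289). Cacnb3 averaged 59.3 ± 1.47 CPM in enhancer KO and 57.1 ± 4.48 CPM in WT, with an interval from −0.06 to 0.16 (edgeR adjusted p = 0.556). Cacnb2 had 49.1, 44.1 and 48.1 CPM in enhancer KO, against 45.0, 42.3 and 39.8 CPM in WT. It missed the threshold (log2 fold change 0.15 ± 0.0604, edgeR adjusted p = 0.0740) but passed as higher in 6 of 16 alternatives. Among these were edgeR with a trend over gene structure removed (0.25, adjusted p = 0.00394) and edgeR without WT replicate 1 (0.20, adjusted p = 0.0271). Cacnb1, the isoform of skeletal muscle, averaged 47.8 CPM in enhancer KO and 45.3 CPM in WT (edgeR adjusted p = 0.460).

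**Figure D3:**
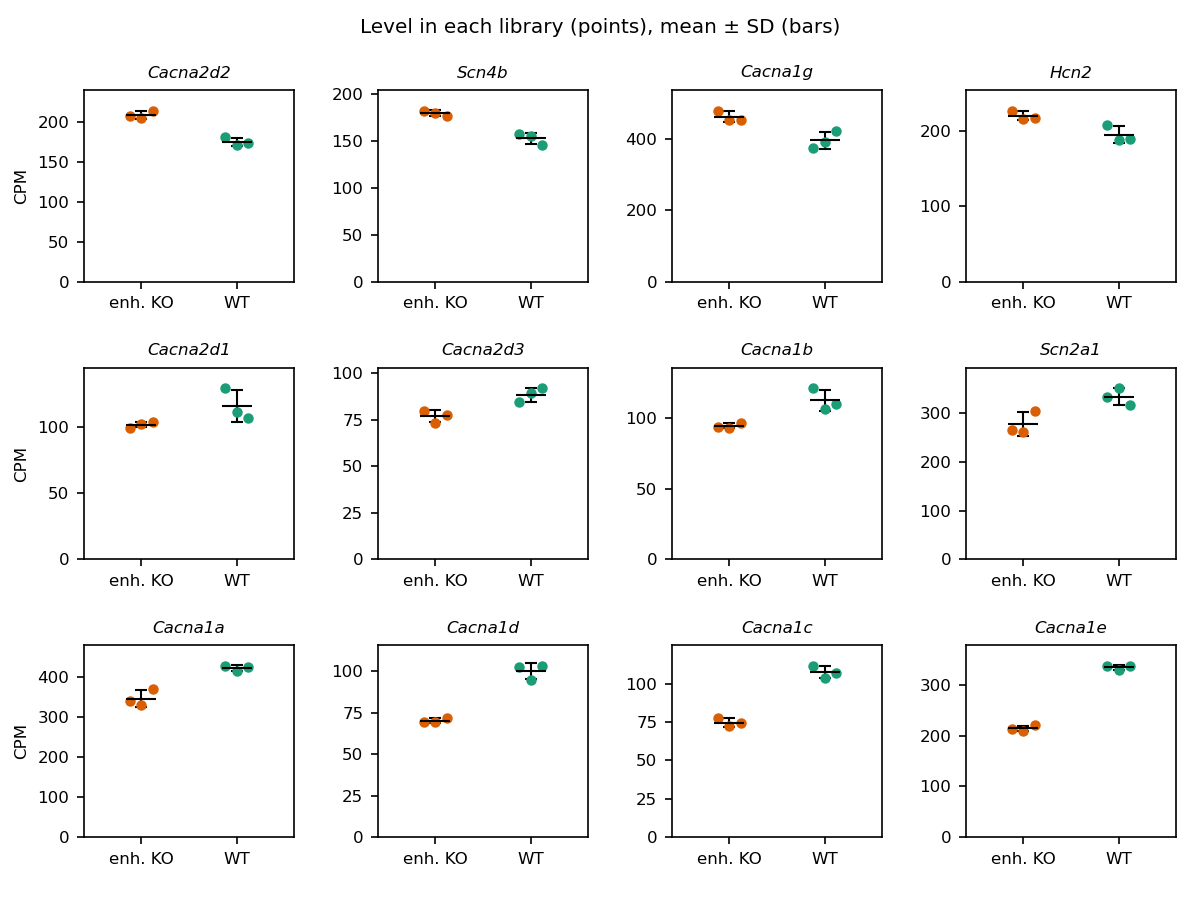
Level in CPM (vertical axis, starting at 0, own scale in each panel) of called channel genes above 10 CPM and of Scn2a1 in each of the 3 enhancer KO and 3 WT libraries, with the mean and SD of each group. Cacna1e, Cacna1c and Cacna1a are lower in every enhancer KO library, Cacna1g, Cacna2d2 and Scn4b are higher in every one, and the groups do not overlap in any panel.

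The sodium channel alpha genes that carry most neuronal sodium current did not pass, apart from Scn2a1. Scn8a (chr15:100869858-101045938, plus strand), the node and initial segment channel that also gives Purkinje cells resurgent current, had 375, 362 and 372 CPM in enhancer KO, against 395, 380 and 360 CPM in WT. The groups overlapped, with an interval of the log2 fold change from −0.12 to 0.06 (edgeR adjusted p = 0.623), and its sign turned with the scaling (−0.03 as reported, 0.03 with library size alone). Scn1a (chr2:66270778-66440840, minus strand), whose loss of function causes Dravet syndrome, had 360, 360 and 378 CPM in enhancer KO, against 357, 331 and 295 CPM in WT. The groups did not overlap but lay close together, and the test was missed (log2 fold change 0.16 ± 0.0626, edgeR adjusted p = 0.0772). Scn1a passed in 7 of 16 alternatives, among them DESeq2 (adjusted p = 0.0330) and edgeR without WT replicate 1 (0.23, adjusted p = 0.00652). Without WT replicate 3 its log2 fold change was 0.09 (adjusted p = 0.265), and without WT replicates 2 and 3 it was 0.06 (adjusted p = 0.512).

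Scn2a1 (chr2:65620771-65767447, plus strand), the alpha gene of unmyelinated axons and granule cells, had 266, 262 and 306 CPM in enhancer KO, against 333, 351 and 317 CPM in WT. All enhancer KO libraries were below the WT libraries (log2 fold change −0.26 ± 0.0629, edgeR adjusted p = 0.00858). The call was lost with library size alone (adjusted p = 0.0627), and without WT replicate 2 (adjusted p = 0.0558), enhancer KO replicate 1 (adjusted p = 0.0608) or WT replicates 2 and 3 together (adjusted p = 0.122). With the trend over gene structure removed, the log2 fold change was −0.17 (adjusted p = 0.0355), and the call was lost once the replicate block was added (−0.17, adjusted p = 0.0642). Among alpha genes per kilobase, Scn1a held 39.3 ± 0.369% in enhancer KO and 34.5 ± 1.25% in WT, and Scn2a1 26.1 ± 1.39% in enhancer KO and 30.8 ± 1.34% in WT. Scn8a held 28.1 ± 0.81% in enhancer KO and 28.2 ± 0.551% in WT (SD, n = 3 each). The alpha genes together summed to 1075 ± 35.0 CPM in enhancer KO and 1102 ± 66.0 CPM in WT, with overlap (exact permutation p = 0.6).

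The embryonic gene Scn3a averaged 45.0 CPM in enhancer KO and 44.4 CPM in WT (edgeR adjusted p = 0.879). The peripheral sodium channel genes were scarce. Scn11a, the sensory neuron gene (chr9:119753759-119825456, minus strand), passed: it had 1.36, 0.728 and 1.61 CPM in enhancer KO (51, 28 and 67 reads), against 2.16, 2.98 and 2.34 CPM in WT (70, 61 and 79 reads). Its log2 fold change of −0.99 ± 0.265 (edgeR adjusted p = 0.0143) rests on few reads, and the call was lost without WT replicate 2 (−0.85, adjusted p = 0.0551). Without WT replicates 2 and 3 together, the Scn11a call was also lost, with a log2 fold change of −0.78. Scn7a averaged 5.86 CPM in enhancer KO and 5.59 CPM in WT (edgeR adjusted p = 0.762). Scn9a averaged 7.46 CPM in enhancer KO and 8.03 CPM in WT, but 53.5% of its stranded reads lay on the other strand. Counted without regard to strand it passed as lower (−0.45, adjusted p = 0.0153), and on the stranded count it did not (adjusted p = 0.627). Scn4a and Scn10a had at most 7 reads in any library and were not tested.

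Among sodium channel beta genes, Scn4b rose in enhancer KO. Scn4b (chr9:45138395-45154152, plus strand), whose product supplies the open-channel blocker of resurgent current, had 182, 180 and 177 CPM in enhancer KO, against 157, 156 and 146 CPM in WT. Its lowest enhancer KO library was above its highest WT library, an increase of 17.3% (log2 fold change 0.23 ± 0.0415, edgeR adjusted p = 0.00142). Scn2b, which binds alpha subunits covalently, had 365, 311 and 387 CPM in enhancer KO, against 339, 288 and 292 CPM in WT. These groups overlapped (log2 fold change 0.21 ± 0.0929, edgeR adjusted p = 0.130), although DESeq2 called the gene higher (adjusted p = 0.0192). Scn3b averaged 43.4 CPM in enhancer KO and 39.0 CPM in WT (edgeR adjusted p = 0.162).

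Among the HCN genes, Hcn2 rose in enhancer KO. Hcn2 (chr10:79716634-79736108, plus strand), a widely expressed HCN isoform, had 227, 216 and 217 CPM in enhancer KO, against 208, 188 and 189 CPM in WT. Every enhancer KO library was above the WT libraries (log2 fold change 0.18 ± 0.0460, edgeR adjusted p = 0.0125). The Hcn2 value was 0.12 with the trend removed (adjusted p = 0.0469) and did not pass without WT replicate 3 (0.15, adjusted p = 0.0579) or without WT replicates 2 and 3 (0.11, adjusted p = 0.187).

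Hcn3 averaged 14.2 CPM in enhancer KO and 15.1 CPM in WT (edgeR adjusted p = 0.522). Hcn4 averaged 17.4 CPM in enhancer KO and 15.9 CPM in WT (edgeR adjusted p = 0.440). Nalcn (chr14:123276634-123627144, minus strand), whose channel carries resting sodium leak, had 146, 140 and 144 CPM in enhancer KO, against 147, 139 and 131 CPM in WT. The groups overlapped, and the interval of its log2 fold change ran from −0.05 to 0.13 (edgeR adjusted p = 0.553). Nalcn passed as higher with the gene structure trend removed (0.13, adjusted p = 0.0241), also with the replicate block added (adjusted p = 0.0265).

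Across the channel genes, levels per kilobase ran over a wide range. Over the 6 libraries, Scn2b averaged 70.9 and Hcn2 65.0 CPM per kilobase, above every pore-forming sodium or calcium channel gene. Among pore-forming genes of sodium and calcium channels, Cacna1g reached 42.2, Cacna1a 33.6, Scn1a 31.1, Scn2a1 24.0 and Scn8a 23.7 CPM per kilobase. In each group, Scn2a1 and Scn8a differed by less than the sum of their SDs.

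The subunits enriched in Purkinje cells and those enriched in granule cells were compared as lists chosen with earlier results of these data known. Of 5 Purkinje-enriched genes, 4 rose in enhancer KO, among them Cacna1g, Cacna2d2 and Scn4b, and Cacna1a fell, with a median log2 fold change of 0.22. The granule-enriched genes Cacna1b, Cacna1e and Scn2a1 all 3 fell, with a median of −0.26, beside 0.00059 over all genes tested. Over all genes tested, 13.4% were higher and 17.9% lower. Of 9 granule neuron markers, 9 were lower (summed level 1438 to 1771 CPM in enhancer KO, 2188 to 2706 CPM in WT). Of 10 Purkinje markers 7 were higher and 0 lower (6787 to 7307 CPM in enhancer KO, 4890 to 5875 CPM in WT). No granule neuron or Purkinje marker was at 0 reads in every library. Other cell types also gave calls: 2 of 4 microglial, 1 of 4 oligodendrocyte and 1 of 5 Bergmann glia and astrocyte markers were higher. Of 4 endothelial and mural markers, 3 were lower. Molecular layer interneuron and Golgi markers gave 1 higher and 1 lower of 6, and choroid plexus markers 0 of 3. Of 6 midbrain and hindbrain markers, 1 was higher (Th, log2 fold change 0.49, edgeR adjusted p = 0.000548) and 0 lower. In bulk tissue, fewer cells of a type and less RNA per cell cannot be told apart, and the part of cell makeup in the channel values was not tested. Cacna1a differed from the other 4 Purkinje-enriched genes in direction, and its call and sign were kept in all 16 alternatives.

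**Figure D4:**
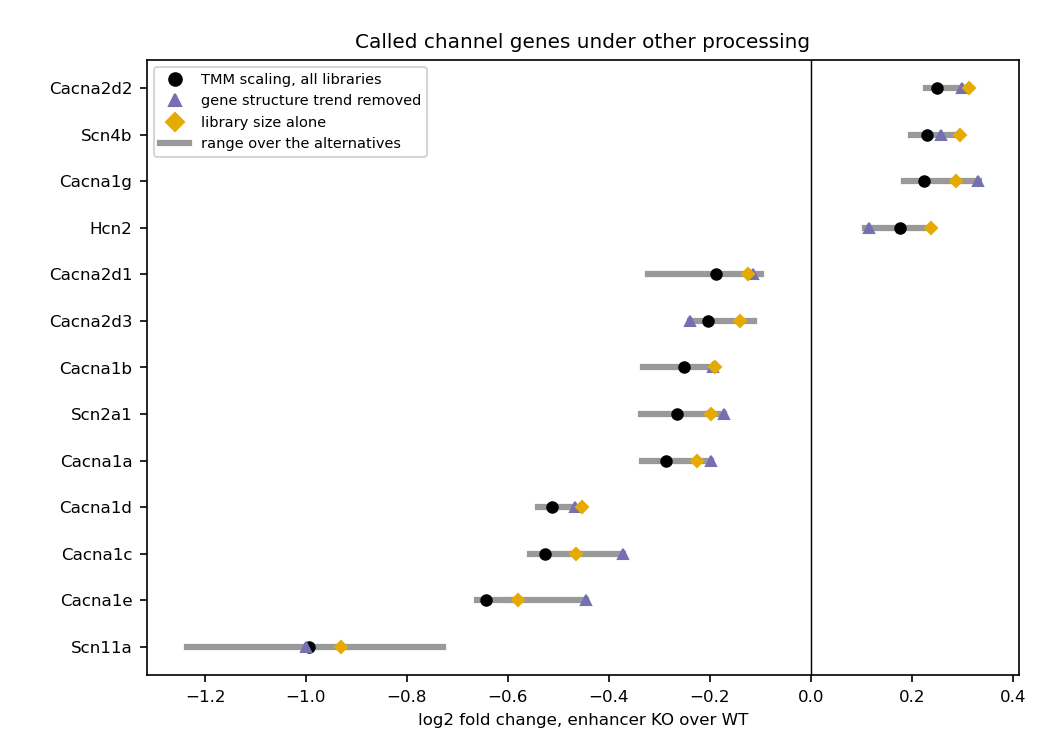
Log2 fold change of enhancer KO over WT (horizontal axis) of called channel genes and Scn2a1 as reported (circle), with the gene structure trend removed (triangle) and with library size alone (diamond). Grey bars span all 16 alternatives, and no bar crosses 0.

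The channel genes that fell were mostly long. Of 10 with over 200 kb of intron, 6 fell and 1 rose, with a median log2 fold change of −0.20. Among all 917 genes of that length, 22.9% fell and the median was −0.02. Of 11 channel genes with 10 to 100 kb of intron, 1 fell and 3 rose (median 0.13), beside 19.2% lower and 13.4% higher among all 8213 genes of that length. Of 4 under 10 kb, 0 fell and 1 rose (median 0.12), beside 14.1% lower and 13.9% higher among all 5340. These counts of short channel genes are too small to set apart from those shares. Across the 33 channel genes, the Spearman correlation between intron length and log2 fold change was −0.539, and across 15696 genes it was −0.0649. Pearson correlations with log10 intron length were −0.430 and 0.0702, so the sign over all genes depended on the measure. These are correlations across genes of the same 6 libraries, which are not independent replicates. Reads outside exons, 17.4% in enhancer KO and 32.4% in WT, separated the same 2 groups, and their part in these changes was not tested. With a trend over gene structure (intron length, GC content and spliced length) removed from each library, Cacna1e remained lower (−0.45), as did Cacna1c (−0.37) and Cacna1a (−0.20), and Cacna1g remained higher (0.33). The channel genes then gave 9 increases and 7 decreases.

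**Figure D5:**
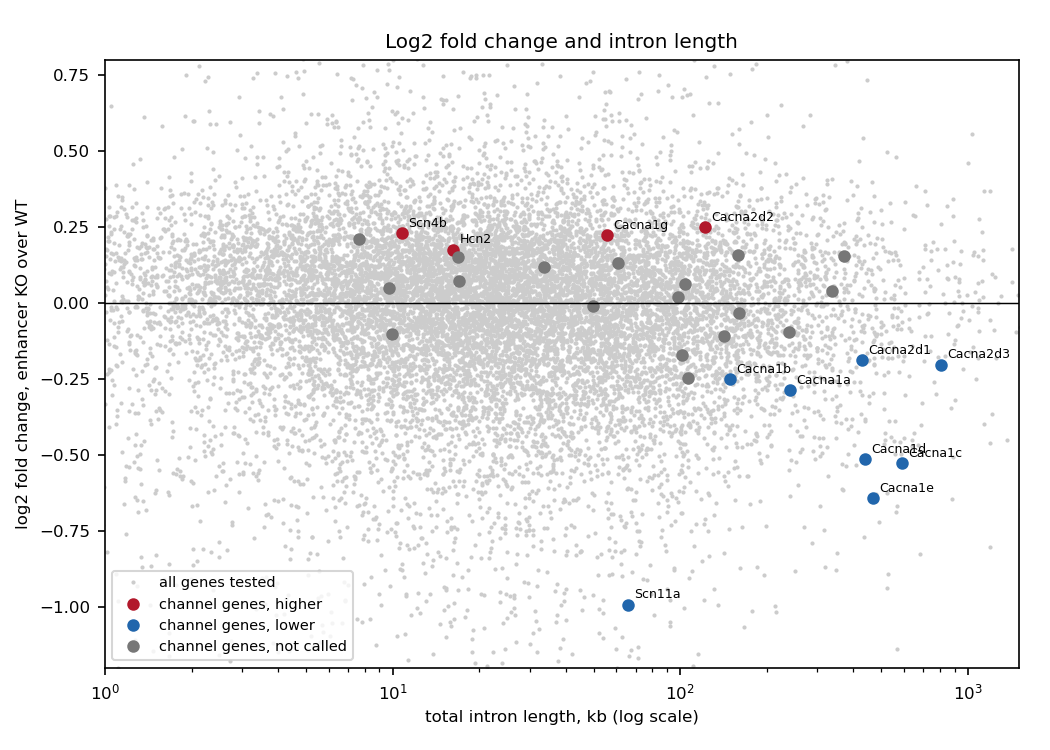
Log2 fold change of enhancer KO over WT (vertical axis) against total intron length in kilobases (horizontal log axis), with channel genes that rose in red, those that fell in blue, the others in dark grey and all genes tested within the plotted range in light grey. A few channel genes that are not reported are not plotted. With these counted, the 10 channel genes with over 200 kb of intron have a median of −0.20 and those from 10 to 100 kb a median of 0.13.

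Genes whose products anchor, traffic or regulate these channels were taken from a list of 27 counted genes, of which 25 were tested. Of the 25, 6 rose and 5 fell in enhancer KO (44.0% called, beside 31.3% of all genes; median log2 fold change −0.03). The calcium channel gamma and AMPA receptor auxiliary genes gave 4 increases and 0 decreases among 6, beside 13.4% and 17.9% of all genes tested. Cacng5, expressed in Bergmann glia, averaged 64.7 ± 0.788 CPM in enhancer KO and 49.0 ± 3.04 CPM in WT (log2 fold change 0.40 ± 0.0513, edgeR adjusted p = 0.00015). Cacng4 averaged 28.8 CPM in enhancer KO and 22.7 CPM in WT (0.34, edgeR adjusted p = 0.00141), and Cacng3 and Cacng2, which encodes stargazin, also rose (0.44 and 0.23). Cacng3 lost its call without WT replicate 3 (0.32, adjusted p = 0.0696) and without WT replicates 2 and 3 (0.20, adjusted p = 0.304), where Cacng2 was at 0.38 (adjusted p = 0.00141). Bergmann glia and astrocyte markers summed to 2916 to 3030 CPM in enhancer KO and 2414 to 2810 CPM in WT, and their part was not tested.

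Among partners of sodium channels at the axon initial segment, 2 of 4 anchors fell, beside 17.9% of all genes tested. Sptbn4, the spectrin of initial segments and nodes, averaged 119 ± 5.29 CPM in enhancer KO and 154 ± 11.9 CPM in WT (log2 fold change −0.37, edgeR adjusted p = 0.00054). Ank3, which encodes ankyrin-G, averaged 520 ± 7.35 CPM in enhancer KO and 593 ± 22.5 CPM in WT (−0.19, edgeR adjusted p = 0.00651). The Ank3 direction did not hold: it was 0.09 with the trend over gene structure removed (adjusted p = 0.103), and the call was also lost with library size alone (adjusted p = 0.266) and without enhancer KO replicate 1 (adjusted p = 0.0537). The intracellular FGF homologous factors, which bind sodium channel tails, split: Fgf14 fell and Fgf11 and Fgf13 rose. Fgf13 (0.21, edgeR adjusted p = 0.0159) lost its call in 6 of 16 alternatives: the trend removed (0.12, adjusted p = 0.123), also with the block (adjusted p = 0.0827), and without WT replicate 3 (adjusted p = 0.0784), enhancer KO replicate 1 (adjusted p = 0.0524), enhancer KO replicate 2 (adjusted p = 0.0551) or WT replicates 2 and 3. Fgf14, the gene mutated in a human spinocerebellar ataxia, averaged 59.0 CPM in enhancer KO and 74.3 CPM in WT (−0.33, edgeR adjusted p = 0.0108), and lost its call without enhancer KO replicate 1 (adjusted p = 0.0577) and without WT replicates 2 and 3 (adjusted p = 0.0717). Fgf11 averaged 62.9 CPM in enhancer KO and 54.4 CPM in WT (0.21, edgeR adjusted p = 0.00664), with a value of 0.33 without WT replicates 2 and 3.

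The presynaptic tether Rims1 averaged 108 CPM in enhancer KO and 138 CPM in WT (log2 fold change −0.35, edgeR adjusted p = 0.00213). The tethers Rims2 (−0.10, edgeR adjusted p = 0.253) and Rimbp2 (−0.13, edgeR adjusted p = 0.549) did not pass. Unc79, which holds the sodium leak channel in its complex, averaged 71.4 CPM in enhancer KO and 91.1 CPM in WT (−0.35, edgeR adjusted p = 0.000239). Of the same complex, the more abundant Unc80 did not pass (459 CPM in enhancer KO, 484 CPM in WT, edgeR adjusted p = 0.256). Fam155a did not pass either (0.06, edgeR adjusted p = 0.339). The 3 inhibitors of the RGK family and the HCN trafficking subunit gene gave no call.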

How the data were processed

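Bulk RNA-seq of 3 Atoh7 large enhancer KO and 3 WT mouse samples was used. The deposited tables are raw read counts per gene symbol in the layout of STAR, with unstranded and 2 stranded columns. STAR, Trimmomatic and the build mm10 are named in the submitters' processing notes. No annotation or tool version is named in those notes. The stranded column holding nearly all gene reads was used; the other strand held 1.62 to 1.88% of stranded reads. Rows that name no gene were left out of library sizes. Groups come from the genotype labels.

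Counts were filtered by expression, scaled by TMM and tested with edgeR 4.0.16 (robust quasi-likelihood, R 4.3.3) over all 15846 genes, with Benjamini-Hochberg adjusted p under 0.05 as the threshold. CPM values are TMM-scaled. Positions, spliced lengths and intron lengths come from GENCODE annotation of the same build, with 23336 symbols matched directly, 667 through older symbols and 408 not matched. Promoters come from RefSeq, which held 26 of the 36 genes. Alternatives were DESeq2 1.42.0, other scalings and filters, the unstranded column, a gene structure trend removed with mgcv 1.9.3, a replicate block and left-out libraries. Intervals are 1.96 standard errors. The main edgeR fit was also run on simulated counts, which did not carry the group difference in reads outside exons seen here. The rule for genes named in full took called channel genes whose groups did not overlap, the 2 most abundant of each family per kilobase, and the 8 called partner genes with the smallest p. Other names were added after their values were seen. A few genes are not reported here. The channel genes and lists were chosen with earlier results of these data known.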

Additional observations from a re-analysis of the deposited data

How the results depend on the processing

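Of the 14 called channel genes, 7 kept their call in all 16 alternatives, none of the 14 changed sign, and 11 of the 19 uncalled genes were never called. With library size alone, which shifts the median of all genes by 0.06 on the log2 scale, 5 channel genes and 1689 of all genes were lower, and the Purkinje-enriched and granule-enriched medians were 0.29 and −0.20. With the gene structure trend removed these medians were 0.30 and −0.19, and the same with the replicate block added. Without WT replicates 2 and 3, 1640 of all genes were lower and the granule-enriched median was −0.33. Leaving out each library in turn gave 4 to 10 channel genes higher and 6 to 8 lower, 1420 to 2214 of all genes higher and 2181 to 2710 lower, and 3 to 6 partners lower. It moved the Purkinje-enriched median between 0.18 and 0.23, the granule-enriched one between −0.34 and −0.23, and the difference in family share, in percentage points, between −0.489 and 1.15 for Scn2b, −0.0768 and 0.702 for Scn4b, and −0.482 and 0.319 for Scn8a, which was 0.0455 on plain counts.

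Signs turned for uncalled genes near 0. Scn8a was 0.031 under library size scaling and 0.093 after the trend was removed, with or without the block. Leaving out each library in turn gave −0.00028 to 0.093 for Cacnb3 and −0.00061 to 0.084 for Nalcn, which was −0.015 without WT replicates 2 and 3. The called gene Ank3 was 0.086 after the trend was removed, with or without the block. The cause was not tested. Same-numbered libraries did not deviate together (correlations 0.0563, −0.0528 and −0.134). With deviations taken within groups of 3 libraries, these values cannot exclude a pairing by number. A replicate block gave 7 channel genes higher and 7 lower, with 1961 of all genes higher and 2635 lower. With DESeq2, 8 channel genes were higher and 8 lower. Genes under 10 CPM are limited by depth.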

Other observations

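Set against the summed Purkinje markers of the same library, a ratio chosen after the values were seen, several Purkinje-enriched channel genes had lower means in enhancer KO than in WT. Per 1000 CPM of markers, Cacna1a had 49.0 ± 1.35 CPM in enhancer KO and 77.8 ± 8.36 CPM in WT, and Cacna1g 65.4 ± 3.05 CPM in enhancer KO and 72.4 ± 3.49 CPM in WT (SD, n = 3 each). The groups did not overlap for these 2 genes, while they overlapped for Cacna2d2 (29.6 ± 0.491 in enhancer KO, 32.4 ± 4.07 in WT) and Scn4b (25.5 ± 1.18 in enhancer KO, 28.2 ± 3.66 in WT). The higher WT means of Cacna2d2 and Scn4b leaned on WT replicate 1. Across WT replicates 1, 2 and 3, Cacna2d2 had 37.0, 30.4 and 29.7, and Scn4b 32.1, 27.6 and 24.9. WT replicate 1 also had the lowest Purkinje marker sum of all libraries (4890 CPM).

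Against summed granule neuron markers, Scn2a1 had 178 ± 5.10 CPM per 1000 CPM in enhancer KO and 135 ± 15.2 in WT, without overlap. Cacna1e had 145, 146 and 125 in enhancer KO and 154, 122 and 132 in WT, with overlap, and Cacna1b 61.0 ± 5.64 in enhancer KO and 45.7 ± 8.42 in WT, also with overlap. These ratios assume that the markers track cell content, which was not tested.

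Midbrain and hindbrain marker genes summed to 88.1 CPM in WT replicate 1, 44.7 CPM in WT replicate 2 and 55.7 CPM in WT replicate 3, and to 63.9 to 68.1 CPM in enhancer KO. Across WT replicates 1, 2 and 3, Tph2 had 28.2, 9.18 and 13.6 CPM, and Slc6a4 29.8, 6.94 and 10.6 CPM. Pax7 had 2.10, 0.195 and 1.04 CPM, and Th 11.1, 10.6 and 10.7 CPM. Otx2 was highest in WT replicate 3 (13.9 CPM) and Pou4f1 in WT replicate 2 (7.13 CPM).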
